A study of Mus musculus with 4 samples.

Results

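Expression of 9 genes that make S-adenosylmethionine, clear its product or supply it with folate carbon was examined in peritoneal macrophages. The cells came from mice with Dnmt1 deleted in myeloid cells and from floxed controls. The genes were Mat2a, Mat2b, Ahcy, Mtr, Mthfd1, Mthfd1l, Mthfd2, Shmt1 and Shmt2, chosen by name and function, and all 9 were found among the 13834 genes of the deposited count table. RNA was sequenced from 4 samples, 2 from Dnmt1fl/fl mice, which carry floxed Dnmt1 alleles, and 2 from Dnmt1KO mice, which carry the same alleles together with Cre recombinase driven by the LysM promoter in myeloid cells. The mice were 10 weeks old, and both genotypes received thioglycolate broth in the abdominal cavity 3 days before the cells were washed out. Neither the sex of the mice nor whether a sample was 1 mouse or a pool was given. LysM-driven Cre also acts in neutrophils, and cells of other lineages in the lavage keep Dnmt1.

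S-adenosylmethionine is the methyl donor of DNA methyltransferases such as Dnmt1 and of most other methyltransferases. Methionine adenosyltransferase makes it from methionine and ATP, methyl transfer leaves S-adenosylhomocysteine, which inhibits methyltransferases until it is hydrolysed to homocysteine, and methionine synthase remethylates homocysteine with a methyl group from folate. The folate carbon comes largely from serine through parallel sets of enzymes in the cytosol and in mitochondria, which also feed purine and thymidylate synthesis.

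Totals ranged from 20228071 to 24198943 counts a sample, and all 9 genes were among the 12542 that passed the filter on low counts. Dnmt1, the targeted gene, was measured at 86.6 and 67.0 CPM (counts scaled with TMM to a common library total) in the Dnmt1fl/fl samples and at 37.0 and 42.7 CPM in the Dnmt1KO samples, so its messenger was lower in both Dnmt1KO samples but remained detected. The summed level of 7 macrophage markers ran from 5741 to 6555 CPM, but single markers moved in opposite directions. Adgre1, Csf1r and Mertk were lowest in Dnmt1KO replicate 1, while Cd68 and Fcgr1 were highest in it. Itgam and Cd14 were highest in Dnmt1fl/fl replicate 2, and Cd14 ran from 197 to 472 CPM. Dnmt1KO replicate 1 stood apart in markers of other leukocytes. The 7 neutrophil markers tested of 10 summed to 878 CPM in it against 215, 319 and 217 CPM in Dnmt1fl/fl replicates 1 and 2 and Dnmt1KO replicate 2. The 6 B cell markers summed to 129 CPM in it against 313, 477 and 514 CPM in the same samples. In bulk RNA, fewer cells of a type and less RNA per cell cannot be told apart.

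In the comparison of Dnmt1KO with Dnmt1fl/fl macrophages, edgeR's quasi-likelihood test called 0 of the 9 genes at an adjusted p under 0.05, and 0.00% of all tested genes. The targeted gene Dnmt1 was not called either (log2 fold change -0.95, standard error 0.24, unadjusted p = 0.0084 from edgeR). The 0 calls therefore do not show that the members are unchanged. None of the 9 members had an unadjusted p under 0.05, against 35 tested genes or 0.279%. That count rested on single samples, with 3521 genes (27.6%) and 2 members, Mat2a and Mtr, without Dnmt1KO replicate 2, and 352 genes (2.73%) and 1 member, Mthfd2, without Dnmt1KO replicate 1. Without Dnmt1fl/fl replicate 1 or 2 it was 43 or 84 genes and 0 members. DESeq2 called 1 gene of the table and limma-voom 0, and neither called a member. The limit of 0.2 on the absolute log2 fold change was passed by 3 members and by 41.5% of tested genes. The 3 were Mat2a, Mtr and Shmt1, each lower in Dnmt1KO, where 19.7% of tested genes passed the limit downward and 21.8% upward. Without Dnmt1KO replicate 2 the limit was passed by 7 members and 72.4% of genes tested, and without Dnmt1fl/fl replicate 2 by 6 members and 55.0% of genes. It was passed by 5 members and 42.1% of genes without Dnmt1KO replicate 1, and by 3 members and 45.2% of genes without Dnmt1fl/fl replicate 1. The genotypes did not overlap for 2 members, Mat2a with both Dnmt1KO samples below and Shmt2 with both above, where 16.7% of tested genes did not overlap, 8.56% with Dnmt1KO below and 8.14% with it above. The median log2 fold change of the 9 members was -0.0728, and of all tested genes 0.0046. For a single gene, permuting the 2 samples of each genotype in an exact two-sided test gives no p below 0.333. Nothing in the labels says that samples of a genotype came from separate mice, so the p-values measure the spread between these samples.

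**Figure D1:**
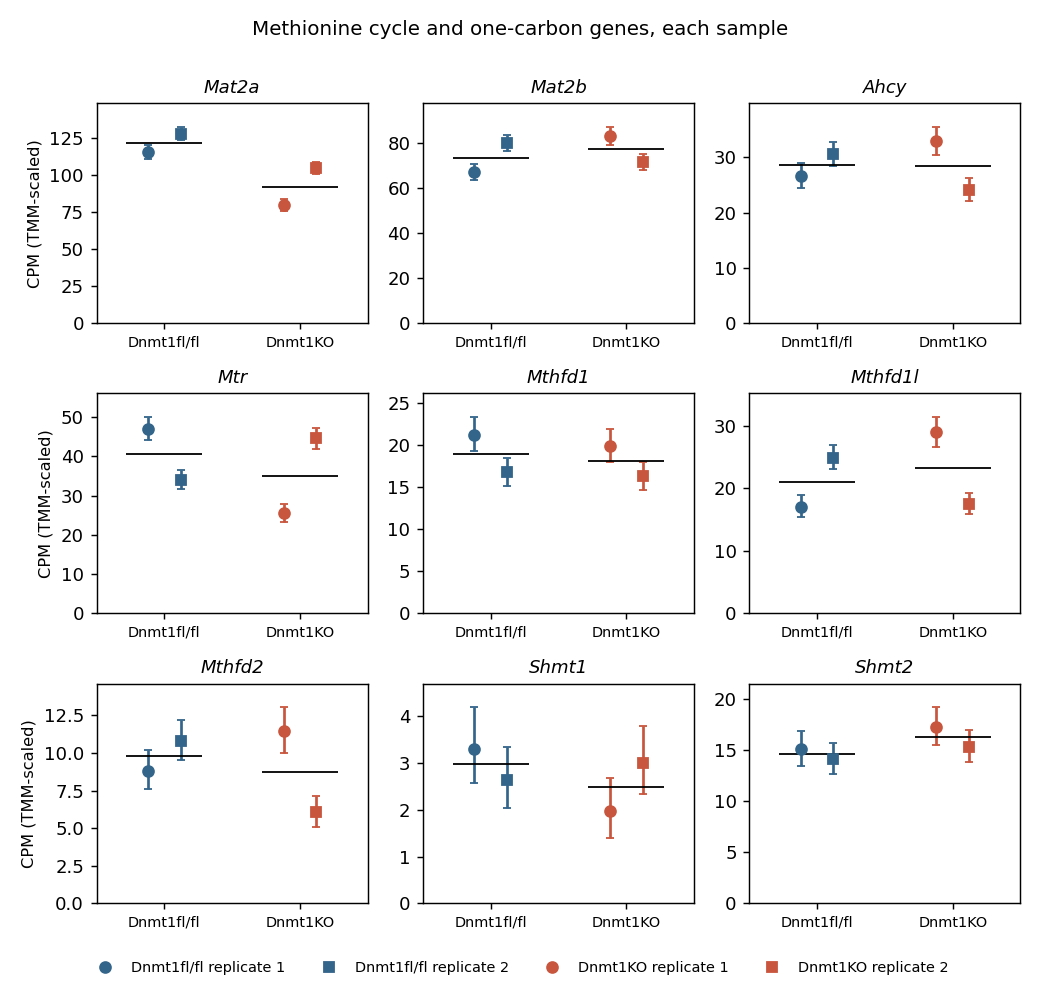
Level of each gene in each sample in CPM (TMM-scaled, linear axis from 0). Symbols are samples, bars on them are exact 95% Poisson intervals of the count (counting error only), and horizontal lines are genotype means, n = 2. Mat2a was at 80 and 105 CPM in Dnmt1KO, below both Dnmt1fl/fl samples, and in most other panels the genotypes overlap.

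Mat2a encodes the catalytic subunit of methionine adenosyltransferase outside the liver and lies on chromosome 6 from 72432799 to 72439558 (GRCm38, minus strand). Its level was 116 and 128 CPM in the Dnmt1fl/fl samples and 79.9 and 105 CPM in the Dnmt1KO samples. Both Dnmt1KO samples were below both controls, and Dnmt1KO replicate 1 was the lowest. The mean was 122 ± 8.77 CPM (SD, n = 2) in Dnmt1fl/fl and 92.2 ± 17.5 CPM (SD, n = 2) in Dnmt1KO, a log2 fold change of -0.40 (standard error 0.24, 95% interval -1.002 to 0.20, adjusted p = 1.00 from edgeR). This was the largest absolute fold change of the 9 in the fit on all 4 samples, and it stayed so without Dnmt1fl/fl replicate 1 but in none of the other fits with 1 sample left out. Mat2a was the 1 member whose genotype difference exceeded the gap between replicates in both genotypes, as 8.29% of tested genes did. The margin was small, since the Dnmt1KO samples differed from each other by 0.39 on the log2 scale. Without Dnmt1KO replicate 1 the log2 fold change was -0.22, and without Dnmt1KO replicate 2 it was -0.61. Particl, an annotated transcript on the opposite strand that spans the start of Mat2a, holds 8.21% of the 100-base stretches of Mat2a, and was at 1.75 to 1.92 CPM in the 4 samples. The counts of Mat2a were not whole numbers in any sample (1581.72 to 3210.81), and the strand setting of the counting was not given in the sources used here, so reads of the shared part cannot be assigned to a strand.

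Mat2b, on chromosome 11 from 40679314 to 40695203, encodes the regulatory subunit that binds Mat2a. It was at 66.9 and 79.9 CPM in Dnmt1fl/fl and at 83.0 and 71.4 CPM in Dnmt1KO macrophages, so the genotypes overlapped. The log2 fold change was 0.0718 (standard error 0.23, 95% interval -0.49 to 0.64, adjusted p = 1.00 from edgeR). The ratio of Mat2a to Mat2b per length of exon does not depend on the scaling between samples. It was 1.93 and 1.79 in Dnmt1fl/fl and 1.07 and 1.63 in Dnmt1KO, lower in both Dnmt1KO samples, a mean log2 difference of -0.49 beside a gap of 0.60 between the Dnmt1KO samples.

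Ahcy, on chromosome 2 from 155059310 to 155074497, encodes the hydrolase that removes S-adenosylhomocysteine. It was at 26.6 and 30.6 CPM in Dnmt1fl/fl and at 32.9 and 24.1 CPM in Dnmt1KO, so the Dnmt1KO samples were the highest and the lowest of the 4. The means were 28.6 ± 2.81 and 28.5 ± 6.19 CPM (SD, n = 2 each), a log2 fold change of -0.0058 with a 95% interval of -0.62 to 0.61. The value turned positive, at 0.0023, with RLE in place of TMM scaling. Of the 100-base stretches of Ahcy, 63.6% also occur in other genes, 59.5% in Gm4737, a gene of a single annotated transcript on chromosome 16. Its counts in the Dnmt1KO samples were not whole numbers, and how the counting divided reads between such genes is not given, so the level of Ahcy is uncertain.

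Mtr, on chromosome 13 from 12182712 to 12258113, encodes methionine synthase, where the folate and methionine cycles meet. It was at 47.0 and 34.1 CPM in Dnmt1fl/fl and at 25.6 and 44.6 CPM in Dnmt1KO. Dnmt1KO replicate 1 alone was below the controls, and Dnmt1KO replicate 2 was between them. The log2 fold change was -0.21 (standard error 0.34, 95% interval -1.04 to 0.63, adjusted p = 1.00 from edgeR), and it was 0.14 without Dnmt1KO replicate 1 and -0.66 without Dnmt1KO replicate 2. Mtr has the longest exon sequence of the 9, 8524 bases, and after a correction for exon length the log2 fold change was -0.12. Mtrr, the reductase that reactivates methionine synthase, was at 10.1 and 9.57 CPM in Dnmt1fl/fl and at 5.86 and 8.86 CPM in Dnmt1KO. Dnmt1KO replicate 1 was again the lowest sample, and here both Dnmt1KO samples were below the controls (log2 fold change -0.42, adjusted p = 1.00 from edgeR).

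Dnmt1 copies methylation of CG dinucleotides (CpG) after replication, so the CpG content of the promoters is shown. Methylation was not measured in these samples. RefSeq windows on GRCm38.p6, from 250 bases before to 50 bases after a gene's start, were matched by symbol for all 9 members. The RefSeq start lay inside the GENCODE gene given above by 8304 bases for Mthfd2, 2521 for Mat2b and 453 for Shmt1, so their windows are not at the outermost annotated start. The members' windows held 8 to 34 CpG with a median of 16, against a median of 7 over 32851 windows of the same length. The 250 bases before the start are printed 5′ to 3′ on the gene's strand with each CpG in capitals. Mat2a (chr6:72439557-72439806, minus strand) has the most CpG of the members, Mtr (chr13:12258114-12258363, minus strand) has the second most CpG, and Mthfd1l (chr10:3972825-3973074, plus strand) has the fewest, all counted over the whole windows.
Mat2a: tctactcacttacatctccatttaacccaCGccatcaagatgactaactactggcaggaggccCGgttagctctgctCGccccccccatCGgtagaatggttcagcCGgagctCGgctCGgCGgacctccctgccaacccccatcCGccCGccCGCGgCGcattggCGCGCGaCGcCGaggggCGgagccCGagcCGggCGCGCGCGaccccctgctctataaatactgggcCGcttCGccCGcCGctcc
Mtr: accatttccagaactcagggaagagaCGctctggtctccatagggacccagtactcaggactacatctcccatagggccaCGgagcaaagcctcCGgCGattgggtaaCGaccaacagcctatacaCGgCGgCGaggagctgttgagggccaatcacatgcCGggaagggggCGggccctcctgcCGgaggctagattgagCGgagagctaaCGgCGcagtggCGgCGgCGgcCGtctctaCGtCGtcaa
Mthfd1l: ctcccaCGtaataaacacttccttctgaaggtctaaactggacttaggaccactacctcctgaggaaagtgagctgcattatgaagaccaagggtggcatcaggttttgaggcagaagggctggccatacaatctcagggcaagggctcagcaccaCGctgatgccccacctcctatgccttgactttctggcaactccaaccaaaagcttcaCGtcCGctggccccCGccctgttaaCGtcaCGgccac
These stretches hold 29, 20 and 7 CpG. The same stretch of Mthfd2 and of Shmt2 also holds 7. The full window of Mat2a has more CpG than 92.3% of all windows, that of Mtr more than 80.02% and that of Mthfd1l more than 51.4%. Shmt2, whose genotypes also did not overlap, had 13 CpG in its window, more than 62.1% of windows. The letters TGATGNAA of the amino acid response element, bound by Atf4, were sought on both strands and were in 0 of the 9 windows and in 3.97% of all windows. The E-box CACGTG, which reads the same on both strands, was in 0 of the 9 and in 7.15% of all windows. These counts say only that the letters are not in these windows.

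Serine hydroxymethyltransferases pass the carbon of serine to folate. Shmt2, the mitochondrial enzyme, on chromosome 10 from 127517123 to 127522444, was at 15.1 and 14.2 CPM in Dnmt1fl/fl and at 17.3 and 15.4 CPM in Dnmt1KO. Both Dnmt1KO samples were above both controls, but Dnmt1KO replicate 2 exceeded Dnmt1fl/fl replicate 1 by less than the counting error of either, whose exact 95% Poisson intervals were 13.8 to 17.1 and 13.5 to 16.9 CPM. The log2 fold change was 0.16 (standard error 0.24, 95% interval -0.43 to 0.75, adjusted p = 1.00 from edgeR). Shmt2 varied least of the 9 genes, with 1.22 times between its lowest and highest sample.

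Shmt1, the cytosolic enzyme, on chromosome 11 from 60788104 to 60811718, was the lowest of the members, with 39 to 71 counts a sample. It was at 3.31 and 2.63 CPM in Dnmt1fl/fl and at 1.97 and 3.01 CPM in Dnmt1KO, with Dnmt1KO replicate 1 below the other samples. At this depth the exact 95% Poisson intervals of the Dnmt1KO samples, 1.40 to 2.69 and 2.35 to 3.795 CPM, overlap each other. The log2 fold change was -0.25 (standard error 0.42, 95% interval -1.31 to 0.80, adjusted p = 1.00 from edgeR), and without Dnmt1KO replicate 1 it was 0.0185. The 3′ ends of Shmt1 and of Smcr8 overlap on opposite strands, which accounts for 2.06% of the 100-base stretches of Shmt1. The ratio of Shmt1 to Shmt2 per length of exon was 0.176 and 0.149 in Dnmt1fl/fl and 0.0910 and 0.157 in Dnmt1KO, so the genotypes overlapped.

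Mthfd1, on chromosome 12 from 76255298 to 76319803, encodes the cytosolic enzyme that interconverts the folate forms. It was at 21.2 and 16.7 CPM in Dnmt1fl/fl and at 19.8 and 16.3 CPM in Dnmt1KO, a log2 fold change of -0.0728 with a 95% interval of -0.71 to 0.56. The replicates of each genotype differed by more than the genotype means, and Mthfd1 was the 1 member for which Dnmt1KO replicate 1 was neither the lowest nor the highest sample.

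Mthfd1l, on chromosome 10 from 3973118 to 4167081, encodes the mitochondrial enzyme that releases formate to the cytosol. It was at 17.1 and 24.96 CPM in Dnmt1fl/fl and at 29.0 and 17.5 CPM in Dnmt1KO. Each genotype held 1 high and 1 low sample, and the gap between replicates was 0.55 in Dnmt1fl/fl and 0.73 in Dnmt1KO on the log2 scale. The log2 fold change was 0.14 (standard error 0.34, 95% interval -0.70 to 0.99, adjusted p = 1.00 from edgeR), and it was -0.27 without Dnmt1KO replicate 1 and 0.46 without Dnmt1KO replicate 2.

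Mthfd2, on chromosome 6 from 83305691 to 83325908, encodes the mitochondrial dehydrogenase and cyclohydrolase that precedes this step. It was at 8.82 and 10.8 CPM in Dnmt1fl/fl and at 11.5 and 6.06 CPM in Dnmt1KO, so the Dnmt1KO samples lay on either side of both controls. The highest sample was 1.89 times the lowest, the widest range of the 9. The log2 fold change was -0.17 (standard error 0.39, 95% interval -1.13 to 0.80, adjusted p = 1.00 from edgeR), and it was -0.70 without Dnmt1KO replicate 1 and 0.22 without Dnmt1KO replicate 2. Mthfd2l, its close relative, was at 2.97 and 3.59 CPM in Dnmt1fl/fl and at 1.31 and 2.97 CPM in Dnmt1KO (log2 fold change -0.61, standard error 0.51, adjusted p = 1.00 from edgeR). For Mthfd2l both Dnmt1KO samples were below the controls, replicate 2 by less than 0.01 CPM.

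**Figure D2:**
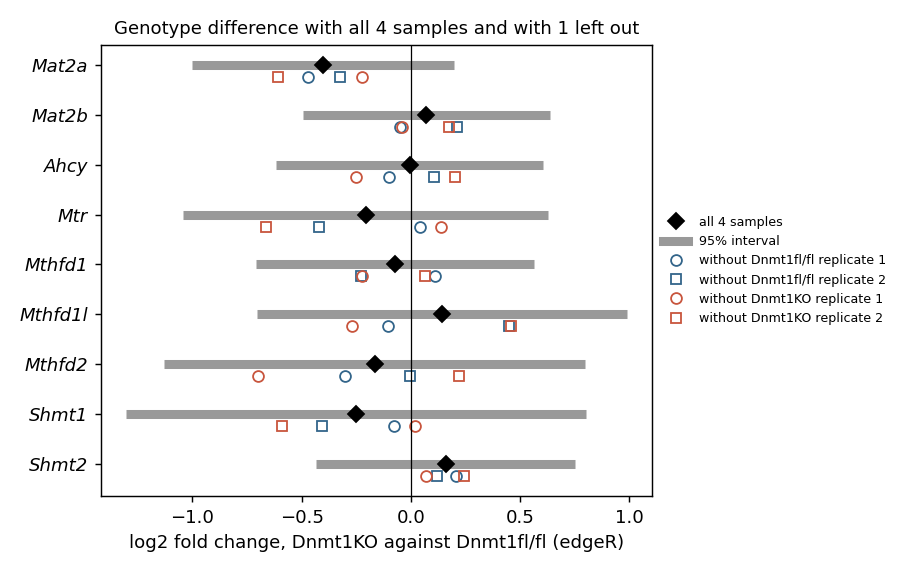
Log2 fold change of Dnmt1KO against Dnmt1fl/fl (edgeR, horizontal axis) for each gene. Diamonds are fits on all 4 samples with 95% intervals as grey bars, and open symbols are fits with the named sample left out. Every interval spans 0, and of the 9 genes Mat2a and Shmt2 kept their sign in all 4 fits with 1 sample left out.

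The members varied more between the Dnmt1KO samples than between the Dnmt1fl/fl samples in 7 of 9 cases, as did 75.0% of tested genes. Dnmt1KO replicate 1 was the highest sample for 5 members and the lowest for 3, where it was the highest for 38.8% and the lowest for 39.6% of tested genes. The members followed different orders of the samples, a description made after the values were seen. Mat2b, Ahcy, Mthfd1l and Mthfd2 were highest in Dnmt1KO replicate 1 and next highest in Dnmt1fl/fl replicate 2, an order that 23.5% of tested genes share. Mtr and Shmt1 ran from Dnmt1fl/fl replicate 1 through Dnmt1KO replicate 2 and Dnmt1fl/fl replicate 2 down to Dnmt1KO replicate 1, as did 8.73% of tested genes.

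The first of these orders was also that of several sums, the macrophage markers among them. The macrophage sum was 6555 CPM in Dnmt1KO replicate 1 and 6002 CPM in Dnmt1fl/fl replicate 2. In Dnmt1fl/fl replicate 1 and Dnmt1KO replicate 2 it was 5980 and 5741 CPM. Of the pathway lists given below, other folate genes, serine synthesis, methionine salvage and Atf4 targets had this order. The methionine cycle, purine synthesis and methyltransferase lists did not. S100a9 and S100a8, the abundant neutrophil calcium-binding proteins, were at 320 and 164 CPM in Dnmt1KO replicate 1 and at 60.5 and 35.7 CPM in Dnmt1fl/fl replicate 2, against at most 8.77 CPM in the remaining samples. Cxcr2 and Mmp9 followed the same order, while Retnlg, Ltf and Csf3r were highest in Dnmt1KO replicate 1 but not next highest in Dnmt1fl/fl replicate 2. The 12 proliferation markers summed to 512 CPM in Dnmt1KO replicate 1 and 380 CPM in Dnmt1fl/fl replicate 2, against 334 CPM in Dnmt1fl/fl replicate 1 and 293 CPM in Dnmt1KO replicate 2. Pcna alone gave 248 CPM of the sum in Dnmt1KO replicate 1. Not all of these markers had the order of the sum. Mki67, Top2a, Cdk1 and Ccnb1 were highest in Dnmt1fl/fl replicate 2, and Mcm3 and Mcm4 were next highest in Dnmt1fl/fl replicate 1. The B cell markers were lowest in Dnmt1KO replicate 1, as were Mat2a, Mtr and Shmt1. The 6 mesothelial and fibroblast markers summed to 92.7 CPM in Dnmt1KO replicate 1 and 24.6 to 47.5 CPM in the other samples. The 6 T cell markers summed to 29.96 to 52.3 CPM and the 4 tested eosinophil and mast cell markers to 8.31 to 11.01 CPM. The part of other cell types in the members' values was not tested.

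**Figure D3:**
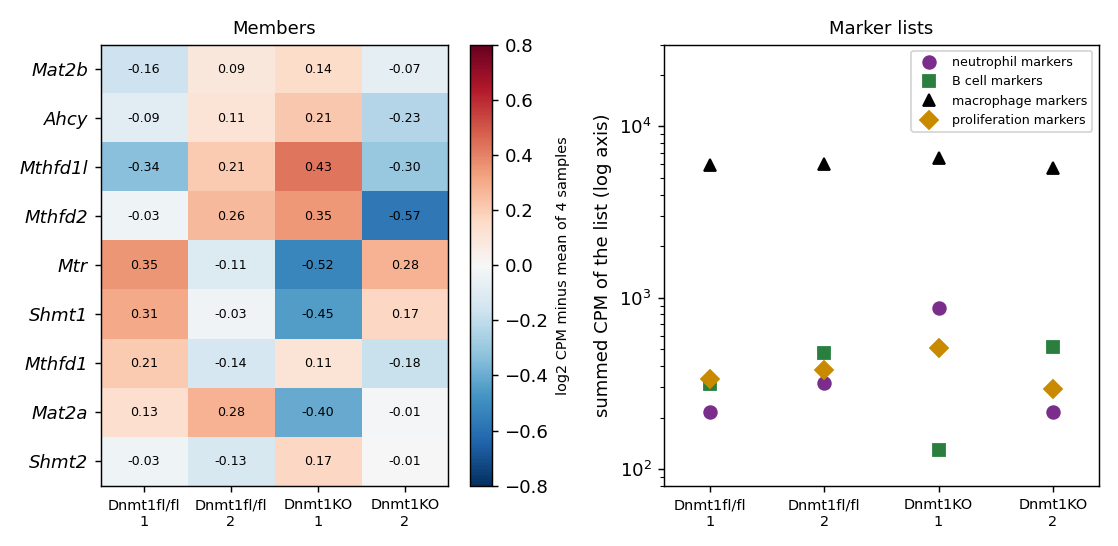
Left, log2 CPM of each gene minus its mean over the 4 samples (colour and printed value). Right, summed CPM of marker lists in each sample on a log axis. Dnmt1KO replicate 1 is the lowest or highest sample for all genes but Mthfd1, and it has the highest neutrophil sum (878 CPM) and the lowest B cell sum (129 CPM).

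The levels of the members were compared per length, as CPM per kilobase of annotated exon. Mat2a was the highest at 23.9 ± 4.56 (SD over the 4 samples), followed by Mat2b at 15.1 ± 1.48 and Ahcy, with the uncertainty from shared sequence given above, at 10.2 ± 1.40, and the sample ranges of these 3 did not overlap. Mthfd1l at 4.99 ± 1.31, Shmt2 at 4.98 ± 0.427, Mtr at 4.43 ± 1.16 and Mthfd1 at 4.17 ± 0.542 followed, and the range of each overlapped that of the next. Within samples, Shmt2 was above Mthfd1 in all 4. Mthfd2 was next at 2.66 ± 0.696, below Mthfd1 in all 4 samples, and Shmt1 was lowest at 0.703 ± 0.149. With the length of the longest transcript in place of all exons, the first 3 and the last 2 places by the mean stayed. Mat2a and Mat2b came close, at 31.6 and 30.6 CPM per kilobase. On this scale their sample ranges overlapped, and Mat2b was above Mat2a in Dnmt1KO replicate 1. Among tested genes with a length, Mat2a stood at the 84.6th percentile and Shmt1 at the 16.5th on the exon scale.

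**Figure D4:**
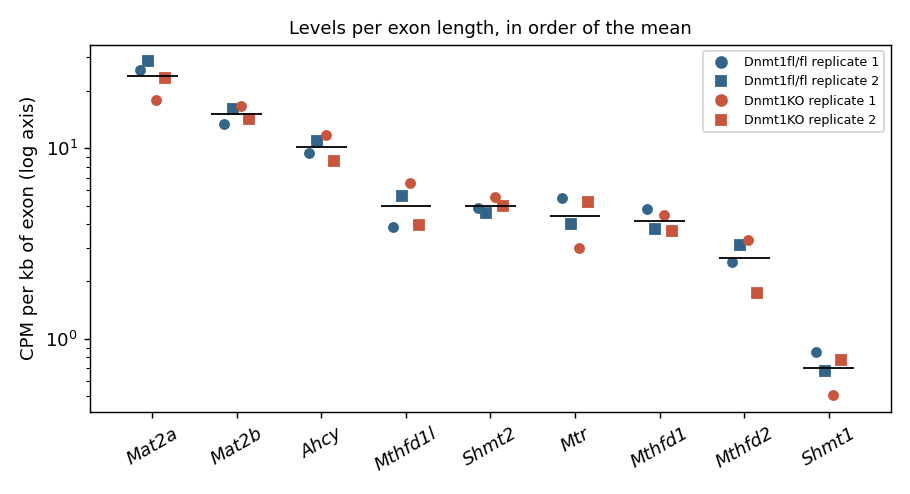
CPM per kilobase of exon (log axis) of the 9 genes in the order of their means, with the 4 samples as symbols and the mean as a line. Mat2a, Mat2b and Ahcy, which make the methyl donor and clear its product, lie above the 6 others (the level of Ahcy is uncertain, as 63.6% of its stretches are shared), and Shmt1 lies lowest at 0.703.

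Ratios between members within a sample need no scaling between samples. Of the 36 pairs of members, 4 had genotypes that did not overlap, or 11.1%, against 17.5% of all pairs of tested genes. They were Mat2a to Mat2b, Mat2a to Shmt2, Mthfd1 to Shmt2 and Mthfd1l to Mthfd2. Mat2a to Shmt2 per length of exon was 5.31 and 6.27 in Dnmt1fl/fl and 3.20 and 4.71 in Dnmt1KO, a log2 difference of -0.57, the widest of the 4, beside gaps of 0.24 and 0.56 between replicates. Mthfd1l to Mthfd2 was 1.53 and 1.82 in Dnmt1fl/fl and 1.99 and 2.27 in Dnmt1KO, a log2 difference of 0.35 beside gaps of 0.25 and 0.19.

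The rest of the pathway was counted from lists of its genes, and no gene of these lists had an adjusted or an unadjusted p under 0.05 in edgeR's test. The counts stand beside 16.7% of all tested genes whose genotypes did not overlap, 8.14% with Dnmt1KO above and 8.56% with it below. With so few genes a list, they are not read as results about the lists. Of 8 other genes of the methionine cycle and transsulfuration that were tested, 1 had both Dnmt1KO samples above and 1 both below the controls, Mmachc, which processes the vitamin B12 cofactor of Mtr, and Mtrr. Mat1a, the liver form of the adenosyltransferase, was sought and was not among the genes with deposited counts. The Ahcy-like genes Ahcyl1 and Ahcyl2 had overlapping genotypes and log2 fold changes of 0.0483 and -0.27. Of 16 other folate genes, 2 were above and 2 below without overlap. At the ends were Slc46a1, the proton-coupled folate transporter, at 1.998 and 2.23 CPM in Dnmt1fl/fl and 3.99 and 2.63 CPM in Dnmt1KO (log2 fold change 0.64, adjusted p = 1.00 from edgeR), and Mthfd2l.

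Serine synthesis (Phgdh, Psat1 and Psph) had 0 of 3 genes without overlap, where 16.7% of all tested genes did not overlap. Of 6 genes of purine synthesis 1 did not overlap, Ppat, the first enzyme of the pathway, at 12.6 and 11.9 CPM in Dnmt1fl/fl and 10.8 and 11.8 CPM in Dnmt1KO. Methionine salvage and polyamine synthesis had 1 of 9 without overlap, Adi1, a dioxygenase of the salvage pathway, with a log2 fold change of 0.21. The median log2 fold change of these 9 was 0.20, and their summed level was 358 CPM in Dnmt1KO replicate 1 against 222 to 256 CPM in the other samples. Of 15 methyltransferases that use S-adenosylmethionine on substrates other than DNA, 1 was above and 1 below without overlap. Prmt5, an arginine methyltransferase, was above with a log2 fold change of 0.0799. Its lower Dnmt1KO sample was at 21.86 CPM against 21.73 CPM in Dnmt1fl/fl replicate 2. Mettl3, the RNA adenosine methyltransferase, was below with -0.10. Of Atf4 and its amino acid response targets, 11 were tested and 1 did not overlap, Sesn2, a stress-inducible regulator of amino acid signalling, at 9.55 and 11.8 CPM in Dnmt1fl/fl and 18.7 and 12.1 CPM in Dnmt1KO. Their summed level was 566 and 620 CPM in Dnmt1fl/fl and 843 and 514 CPM in Dnmt1KO, so Dnmt1KO replicate 1 was the highest sample and Dnmt1KO replicate 2 the lowest, as for Ahcy.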

How the data were processed

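RNA from 4 samples of mouse peritoneal macrophages was sequenced as paired-end reads. Per the labels, the submitters' processing notes name HISAT2 2.0.5, featureCounts 1.5.0-p3, DESeq2 1.20.0 and mm10; the annotation is not given in the sources used here. The authors deposited estimated counts per gene, not normalized, with gene symbols. Between 72.6% and 76.4% of values in a sample were whole, and every value was above 0. A shorter table repeats some rows and was not used.

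Counts were rounded, filtered with filterByExpr, scaled with TMM and tested with edgeR 4.0.16 (R 4.3.3; quasi-likelihood test, two-sided, Benjamini-Hochberg adjustment over 12542 genes) without a block. Standard errors and intervals come from the test statistic. The script was tested on simulated data. A count of 3 corresponds to 0.120 to 0.151 CPM, and Poisson intervals cover no error beyond counting, as reads copied in PCR are not separate molecules. Lengths, positions and shared 100-base stretches come from GENCODE M21 (GRCm38), matched by symbol, with exons of a gene merged. The comparison was repeated with DESeq2 1.42.0, limma 3.58.1 (voom), other scalings and filters, a block, a loess correction for exon length (span 0.5) and leaving out each sample. Genes named are the members, Dnmt1, close relatives, and in each pathway list the highest and lowest fold change among genes without overlap, with any at an unadjusted p under 0.05. S100a8 and S100a9 were singled out after their values were seen, and so were the orders of the samples. The members and lists were chosen with earlier results of these data known.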

Additional observations from a re-analysis of the deposited data

How the results depend on the processing

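No fit called a member at an adjusted p under 0.05, those with 1 sample left out included. The number of all genes called, 0 in edgeR, was 1 with DESeq2, 3 with a crossed pairing that was added after the data were seen, 35 at an unadjusted p under 0.05 and 5206 at an absolute log2 fold change of 0.2, which 3 members reached. It ran from 0 to 1061 with 1 sample left out, highest without Dnmt1KO replicate 2. These fits assume that the lone sample varies like the other genotype, and the cause was not tested. The labels number the samples of each genotype, but nothing says that a number was shared, and deviations of same-numbered samples correlated at -0.35 across genes. Under a replicate block 0 genes were called and 34 had an unadjusted p under 0.05, against 0 and 35 without it. At that p the crossed pairing gave 297 genes and 0 members, and leaving out 1 sample gave 43 to 3521 genes and 0 to 2 members.

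In fits on all 4 samples the sign of 2 members changed. Mat2b went to -0.0072 with library totals alone, and Ahcy to 0.0023 with RLE scaling, 0.0030 without a filter and 0.0041 with DESeq2. Leaving out 1 sample gave log2 fold changes of -0.61 to -0.22 for Mat2a, -0.0495 to 0.21 for Mat2b, -0.25 to 0.20 for Ahcy, -0.66 to 0.14 for Mtr, -0.23 to 0.11 for Mthfd1, -0.27 to 0.46 for Mthfd1l, -0.70 to 0.22 for Mthfd2, -0.59 to 0.0185 for Shmt1 and 0.0707 to 0.24 for Shmt2. The 2 members without overlap, Mat2a and Shmt2, stayed so with RLE scaling, library totals and the length correction. The spread between replicates over all genes, a coefficient of variation of 28.9%, was above the counting error of the members, 1.77% to 16.0% a sample.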
